A study of Mus musculus with 24 samples.

Results

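The lung's response to bleomycin was measured in mice that had received a control gapmer. Bleomycin cuts DNA and is given to mice to injure the lung and start fibrosis, and gapmers are short antisense DNA-based strands that lead RNase H to cut a matching RNA. The comparison takes 8 of the 24 samples of the series, chosen by their titles: 5 lungs given bleomycin and the control gapmer, and 3 lungs given PBS and the control gapmer. The other 16 samples received gapmers against the long noncoding RNA Dnm3os. They enter the estimate of the spread, the choice of each gene's array feature and the level cut-offs, but no group mean compared here. All lungs came from C57BL/6 mice aged 9 to 12 weeks, with no genetic change named in the labels, and both groups carried the control gapmer, so a group without any gapmer is not part of the comparison. Neither the dose of bleomycin, nor the time after it, the route of either agent or the sex of the mice is stated in the sources used here. Total RNA of the whole lung was labelled with Cy3 and hybridised to one-colour Agilent arrays, 1 array per sample, and the values are log2 intensities. Since the labels give sample numbers and no animal names, p-values here reflect the spread between samples, and the number of arrays limits the precision.

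Fibrosis of the lung follows damage to the alveolar epithelium, the thin layer formed by flat type 1 cells, which exchange gas, and cuboidal type 2 cells, which make surfactant and renew the layer. After injury fibroblasts lay down collagen and elastin, monocytes enter from the blood and become macrophages at sites of scarring, and surviving epithelial cells pass through intermediate states or are replaced by basal-like cells. TGF-beta drives the matrix programme, while BMPs, ligands of the same superfamily, signal through other receptors and are known for keeping the lung's vessels quiescent.

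Over 20728 named genes, 7001 passed the test (33.8%), 3003 of them higher after bleomycin (14.5%) and 3998 lower (19.3%). The counts of gene lists below stand against these shares. The test was limma's moderated test with Benjamini-Hochberg adjustment over all genes at an adjusted p under 0.05. A gene that passed is called higher or lower below. Changes over 2-fold were fewer, with 592 genes higher (2.86%) and 291 lower (1.4%). The groups did not overlap for 15.1% of genes with bleomycin higher and for 18.2% with bleomycin lower. The median difference of all genes, bleomycin minus PBS, was -0.02 on the log2 scale. The RNA integrity numbers in the labels ran from 9.0 to 9.9 in the bleomycin lungs and from 9.1 to 9.5 in the PBS lungs.

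Several arrays stood apart from others of their group. Bleomycin replicate 5 responded least: over 4767 called genes above the median level, the slope of its differences from PBS on the mean of the other 4 arrays was 0.774, against 1.035, 1.12, 0.973 and 1.075 for replicates 1 to 4. Without it 7339 genes were called. Bleomycin replicate 3 carried transcripts of thymus genes: Dntt, the polymerase that adds bases to antigen receptor genes in immature lymphocytes, lay at 7.44, 7.29, 11.56, 7.33 and 7.27 in the bleomycin lungs, against 7.01, 6.94 and 7.42 in the PBS lungs. Rag1, part of the enzyme that rearranges those genes, lay at 5.60, 5.65, 10.22, 5.55 and 5.64 in the bleomycin lungs, against 5.59, 5.59 and 5.75 in the PBS lungs. The thymus protease gene Prss16 and the thymus chemokine gene Ccl25 behaved likewise, at 9.59 and 10.96 in bleomycin replicate 3 and no higher than 6.39 and 9.32 in any other array. Without replicate 3, 6615 genes were called. Among the PBS lungs, epithelial keratins differed widely, as Krt13, a keratin of squamous epithelium, shows with 13.40, 12.80, 13.02, 13.21 and 12.10 in the bleomycin lungs, against 10.14, 11.25 and 5.80 in the PBS lungs. The mean shift of the basal and squamous list from the PBS mean was 0.17, 0.70 and -0.87 in PBS replicates 1, 2 and 3. Results that rest on these arrays are given with and without them.

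**Figure D1:**
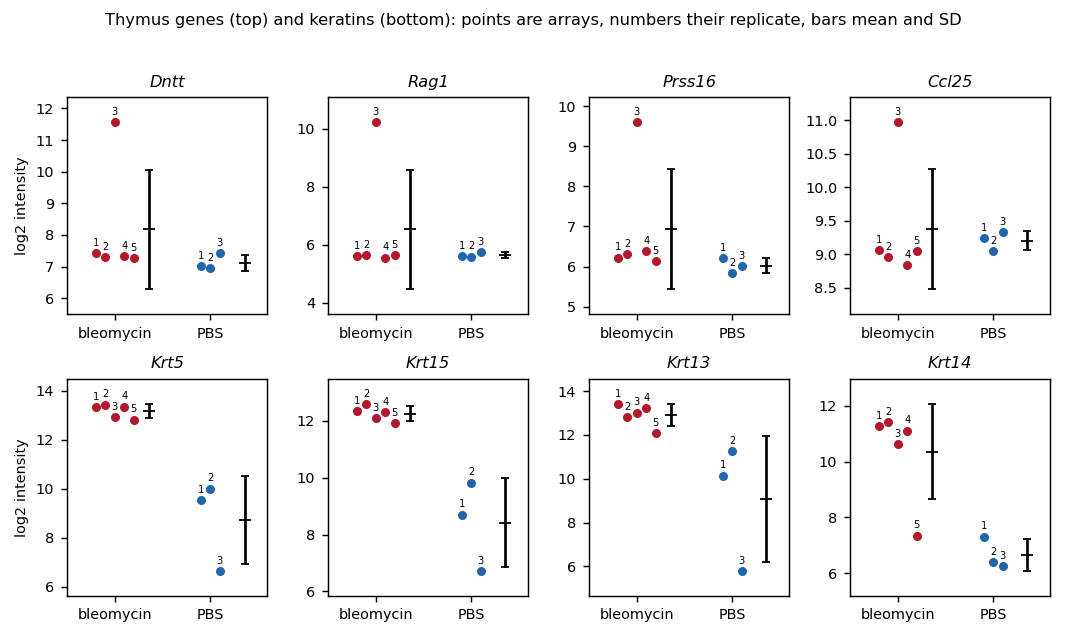
Thymus genes Dntt, Rag1, Prss16 and Ccl25 (top row) and keratins Krt5, Krt15, Krt13 and Krt14 (bottom row) in each array, as log2 intensity, with bleomycin (red) left of PBS (blue). Points are single arrays with their replicate number, and black bars give the mean and SD of the 5 bleomycin or 3 PBS arrays. Bleomycin replicate 3 alone is high in the thymus genes, bleomycin replicate 5 is low in Krt14 (7.35), and PBS replicate 3 is low in Krt13 (5.80).

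Lists of fat, muscle, red blood cell and mesothelial genes also moved with the treatment. Of 11 genes of fat tissue 9 were lower after bleomycin and none was higher, with a median difference of -1.52. Adipoq, the fat-cell hormone adiponectin, lay at 11.04, 10.94, 10.51, 11.13 and 11.17 in the bleomycin lungs, against 12.37, 13.28 and 12.66 in the PBS lungs. Of 14 skeletal muscle genes 2 were called lower and 12 lay below every PBS array, with a median of -1.04. Myh2, a fast myosin heavy chain, lay at 6.08, 6.15, 5.91, 6.26 and 6.18 in the bleomycin lungs, against 11.81, 13.89 and 13.02 in the PBS lungs, so it stood near the bottom of the scale in every bleomycin lung and varied among the PBS lungs. Of 14 cardiac muscle genes 7 were lower (median -0.55), of 8 red blood cell genes 6 were lower (median -0.95), and of 10 mesothelial genes 8 were lower and 2 higher. Krt14, also on the basal and squamous list, was among the higher mesothelial genes. Alas2, the enzyme that starts haem synthesis in red cells, lay at 12.38, 12.20, 12.42, 12.46 and 12.67 in the bleomycin lungs, against 13.94, 13.61 and 13.35 in the PBS lungs. Of 4 sex-linked genes none was called: Xist, which is expressed in cells with a pair of X chromosomes, lay under 6.11 in all 8 lungs, and the Y-linked Eif2s3y lay between 11.17 and 11.59. Among 8 lung identity genes 4 were lower and none higher, with 2 lower without PBS replicate 3 or bleomycin replicate 2. Sftpc, the surfactant gene that marks type 2 cells, lay at a mean of 18.03 after bleomycin and 17.99 after PBS, and the club cell gene Scgb1a1 at 18.01 and 17.96, both near the highest value on the arrays, where a change cannot be read.

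**Figure D2:**
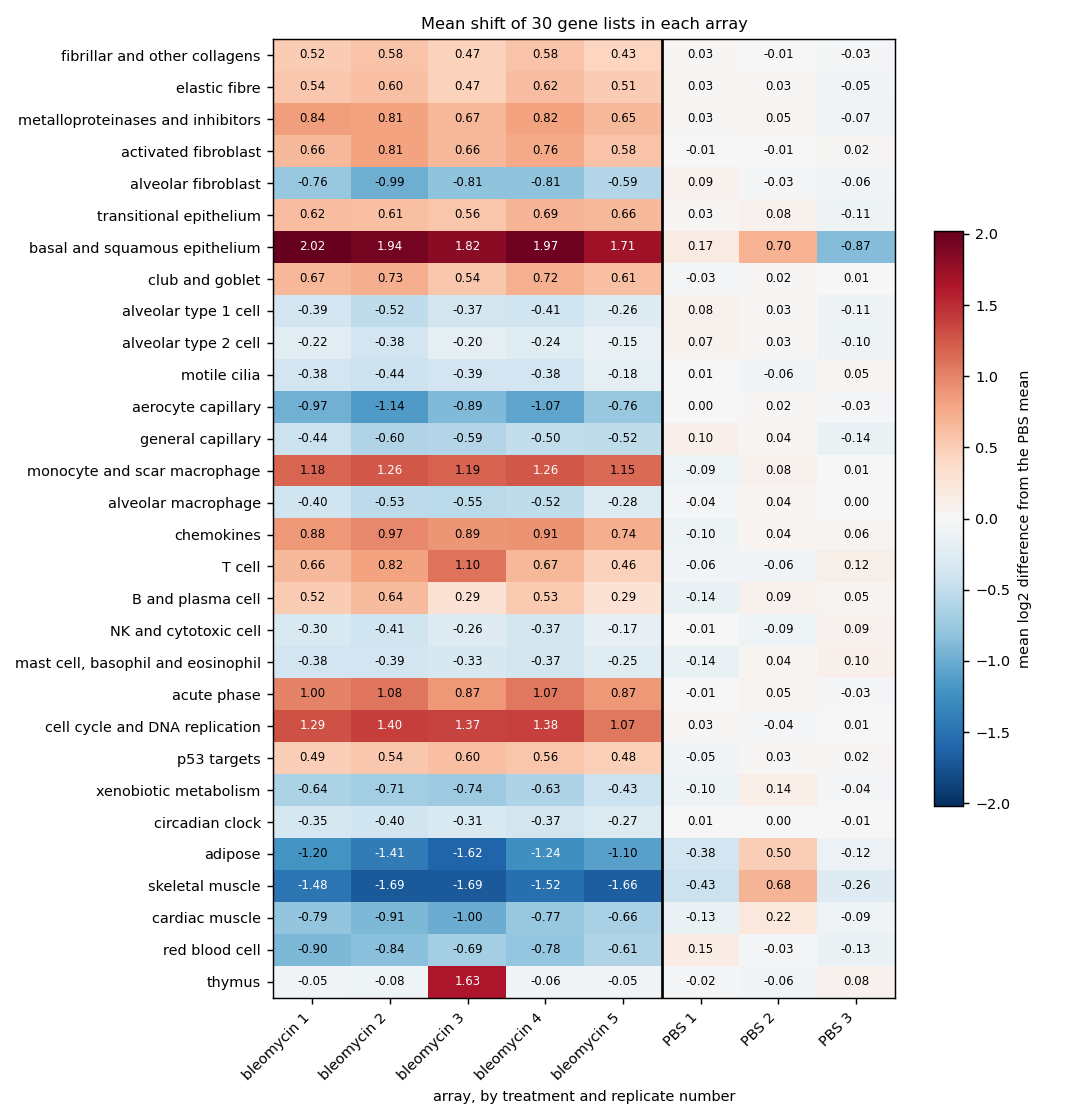
Mean shift of 30 gene lists (rows) in each array (columns, bleomycin replicates 1 to 5 left of PBS replicates 1 to 3), as the mean over a list's measured genes of the log2 difference from the PBS mean; red is above and blue below it. The basal and squamous list is highest after bleomycin (1.71 to 2.02), the thymus list is raised in bleomycin replicate 3 alone (1.63), and fat and muscle lists are below every PBS array in all 5 bleomycin arrays.

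Collagen genes rose selectively. Of 43 measured collagen genes 23 were higher after bleomycin and 3 lower, with a median difference of 0.32. The fibril-forming chains led: Col1a1, the main chain of type I collagen, lay at 14.85, 15.07, 14.92, 14.94 and 14.70 in the bleomycin lungs, against 13.11, 12.94 and 13.05 in the PBS lungs. It rose 3.64-fold (log2 difference 1.86, SE 0.15, limma adjusted p = 9.69e-09), and the lowest bleomycin lung stood above the highest PBS lung by more than either group's range. Col5a3, a chain of type V collagen, which starts and limits fibril growth, lay at 10.54, 10.80, 10.22, 10.65 and 10.27 in the bleomycin lungs, against 8.40, 8.54 and 8.25 in the PBS lungs. Its rise of 4.29-fold was the largest of the list (log2 difference 2.10, SE 0.23, limma adjusted p = 5.55e-07). Col5a2, Col1a2, Col3a1 and Col5a1 rose by 1.74, 1.70, 1.55 and 1.43 on the log2 scale. Basement membrane collagen split by the features used, with Col4a1 and Col4a2 higher by 1.09 and 0.73 and Col4a6 at -0.54. The groups overlapped in Col4a6, its other array feature differed by -0.01, and its smallest fall under the processing alternatives was -0.28. The other lower genes were Col8a2 at -0.41 and Col20a1 at -0.34.

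Enzymes that process and join collagen followed, with 14 of 28 higher and 4 lower (median 0.32). Lox, the lysyl oxidase that starts the crosslinking of collagen and elastin, lay at 9.59, 9.73, 9.02, 9.25 and 8.86 in the bleomycin lungs, against 7.69, 7.84 and 7.33 in the PBS lungs, a rise of 3.18-fold (log2 difference 1.67, SE 0.27, limma adjusted p = 5.65e-05). Its relatives Loxl2 and Loxl1 rose by 1.26 and 0.99, while Loxl3 differed by 0.24 and was not called. Adamts2, which trims procollagen, rose by 0.82. Pcolce2, which enhances another procollagen proteinase, went the other way and lay at 11.70, 11.21, 11.87, 11.50 and 12.36 in the bleomycin lungs, against 13.38, 13.39 and 13.49 in the PBS lungs. It fell 3.23-fold (log2 difference -1.69, SE 0.23, limma adjusted p = 8.46e-06), and bleomycin replicate 5 was the least changed. The prolyl hydroxylase subunit P4ha1 differed by -1.01 and its relative P4ha3 by 0.72, both called, and P4ha3 by 1.42 when read from its brightest feature over these 8 arrays.

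Of 17 elastic fibre genes 8 rose and 3 fell (median 0.37). Elastin itself, Eln, lay at 12.79, 12.94, 12.47, 12.93 and 12.35 in the bleomycin lungs, against 9.24, 9.17 and 8.80 in the PBS lungs. This was a 12.3-fold rise (log2 difference 3.62, SE 0.36, limma adjusted p = 1.75e-07), one of the 10 largest among all genes above the median level, and no arrays of the 2 groups came within 3 log2 units of each other. Ltbp2, which binds microfibrils, and Fbn1, their main component, rose by 1.55 and 1.46. Ltbp4, needed to assemble elastin onto those microfibrils in the lung, fell to 14.32, 14.07, 14.09, 14.32 and 14.55 in the bleomycin lungs, against 15.22, 15.23 and 15.05 in the PBS lungs, a fall of 1.86-fold (log2 difference -0.90, SE 0.12, limma adjusted p = 4.78e-06). Its other 2 array features differed by -0.61 and -0.28, and its smallest fall under the processing alternatives was -0.60. Efemp1, a fibulin-family gene, differed by -0.84.

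In the provisional and matricellular matrix, 10 of 22 genes rose and 5 fell (median 0.17). Spp1, the secreted phosphoprotein osteopontin, lay at 13.90, 14.06, 13.94, 14.07 and 13.61 in the bleomycin lungs, against 10.25, 10.13 and 9.76 in the PBS lungs. Tnc, tenascin C, lay at 8.22, 8.30, 8.06, 8.28 and 7.96 in the bleomycin lungs, against 5.89, 6.03 and 5.80 in the PBS lungs. Its PBS mean of 5.91 is below 6.11 (the 25th percentile over all genes), so its difference of 2.26 is a lower bound for the feature used. The other array feature of Tnc differed by 1.56, and its lowest difference under the processing alternatives was 1.91. The thrombospondin family was split, with Thbs4 higher by 2.62, Thbs2 by 1.59 and Thbs1 by 1.05, and Thbs3, at -0.59, called lower. Postn, periostin, a common marker of fibrotic matrix, differed by -0.25 (limma adjusted p = 0.099) and was not called. Igfbp3, which binds insulin-like growth factors, fell to 7.66, 7.55, 7.42, 7.41 and 7.89 in the bleomycin lungs, against 9.30, 9.26 and 9.59 in the PBS lungs, a 3.48-fold fall (log2 difference -1.80, SE 0.18, limma adjusted p = 1.81e-07).

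Among 27 proteoglycan and hyaluronan genes 11 rose and 8 fell (median 0.02), a larger called share in each direction than among all genes. Has2, a hyaluronan synthase, lay at 8.46, 8.95, 8.45, 8.50 and 8.18 in the bleomycin lungs, against 6.16, 6.41 and 6.47 in the PBS lungs and rose 4.47-fold (log2 difference 2.16, SE 0.26, limma adjusted p = 1.36e-06). Lum and Fmod, small leucine-rich proteoglycans that bind collagen fibrils, rose by 1.17 and 1.05, whereas the related Omd, Ogn and Prelp differed by -1.39, -1.08 and -0.61, all called lower. Decorin, Dcn, differed by -0.13 and was not called. In the basement membrane list only 3 of 17 genes rose and none fell, a share of higher calls close to that of all genes. Lama1, a laminin chain of embryonic basement membranes, was the exception in size, at 10.95, 11.33, 10.97, 11.10 and 10.70 in the bleomycin lungs, against 8.21, 8.04 and 7.80 in the PBS lungs, a 7.94-fold rise (log2 difference 2.99, SE 0.27, limma adjusted p = 3.93e-08). The chains of the mature lung, Lama3, Lama4 and Lama5, differed by -0.04, -0.06 and 0.18, none of them called.

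**Figure D3:**
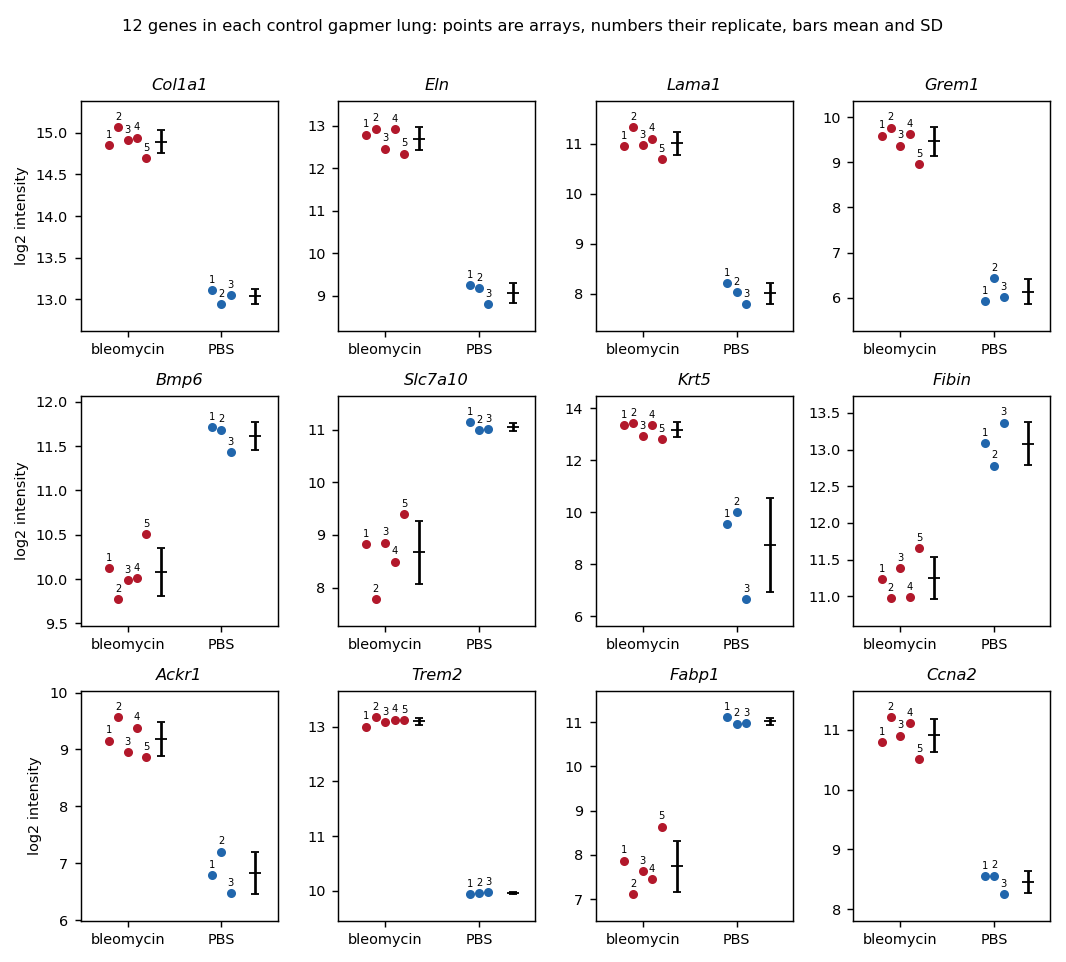
Log2 intensity of 12 genes in each control gapmer lung, bleomycin (red) left of PBS (blue); points are arrays with their replicate number, and black bars give the mean and SD of 5 and 3 arrays. The groups do not overlap in any of the 12 genes, bleomycin replicate 5 lies nearest the PBS arrays for Grem1 (8.96) and Fabp1 (8.64), and Krt5 varies most among the PBS arrays (9.53, 10.01 and 6.66).

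Matrix metalloproteinases digest matrix and process signals held in it, and the Timp proteins inhibit them. Of 27 such genes 12 rose and 1 fell, with a median of 0.24, and 7 were dim in both groups. Mmp7, matrilysin, lay at 9.73, 9.95, 9.11, 9.62 and 7.66 in the bleomycin lungs, against 5.58, 5.65 and 5.84 in the PBS lungs, with bleomycin replicate 5 lowest but still above every PBS array. Mmp12, the macrophage elastase, lay at 9.44, 9.78, 9.41, 9.48 and 9.19 in the bleomycin lungs, against 6.20, 6.14 and 5.95 in the PBS lungs. For both the PBS mean was under 6.11, so their differences of 3.52 and 3.37 are lower bounds for the features used (Mmp12 differed by 2.05 as the mean of its features), and the same holds for Mmp13, a collagenase, at 1.46. The inhibitor Timp1 lay at 13.95, 14.22, 13.74, 13.98 and 13.53 in the bleomycin lungs, against 10.23, 10.18 and 10.34 in the PBS lungs, a 12.4-fold rise (log2 difference 3.63, SE 0.29, limma adjusted p = 8.61e-09), while Timp2 and Timp3 differed by -0.11 and 0.13 and were not called. Mmp14, anchored in the membrane, and the gelatinase Mmp2 rose by 2.03 and 1.51, and the only lower gene was Mmp15 at -0.52.

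The raised genes Mmp3, Mmp7, Mmp10, Mmp12 and Mmp13 lie close together on chromosome 9, and the stretch before each start holds an AP-1 motif (TGANTCA, either strand, within 250 bases before to 50 bases after the start). AP-1, the Fos and Jun family, is known to bind such motifs. The motif was in the promoters of 8 of the 22 Mmp and Timp genes with a RefSeq promoter sequence (36.4%), against 8.19% of 16404 genes and 9.33% of all genes called higher. Of the 10 Mmp and Timp genes called higher with such a sequence, 5 held it (50%). Mmp8, Mmp14, Mmp23, Mmp25 and Timp1, listed here after their values were seen, rose without it. Mmp1a, Mmp1b and Mmp20, which held it too and were picked for that after their values were seen, were not called. Both group means of each were under 6.11, where a change is hard to read. These sequences are shown because they carry the shared motif, in capitals, upstream of genes that rose together; each ends at the base before the start, and Mmp10 is named for the motif, after its values were seen. They come from RefSeq on GRCm38.p6, plus strand, at chr9:7445722-7445821 for Mmp3, chr9:7691990-7692089 for Mmp7, chr9:7502242-7502341 for Mmp10, chr9:7347274-7347373 for Mmp12, at the second of its 2 starts, and chr9:7272414-7272513 for Mmp13.
Mmp3: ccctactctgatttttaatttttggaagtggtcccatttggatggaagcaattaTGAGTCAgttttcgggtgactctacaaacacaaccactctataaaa
Mmp7: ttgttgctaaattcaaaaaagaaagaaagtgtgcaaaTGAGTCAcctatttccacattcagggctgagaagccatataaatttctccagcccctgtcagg
Mmp10: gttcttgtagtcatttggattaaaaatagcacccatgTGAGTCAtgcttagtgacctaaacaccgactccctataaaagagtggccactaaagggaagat
Mmp12: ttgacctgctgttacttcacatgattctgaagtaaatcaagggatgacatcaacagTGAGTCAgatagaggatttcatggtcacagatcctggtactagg
Mmp13: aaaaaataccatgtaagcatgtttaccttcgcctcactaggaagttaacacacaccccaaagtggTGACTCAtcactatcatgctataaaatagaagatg
The log2 differences of these genes ranged from 0.92 for Mmp3, which already stood at 10.52 in PBS lungs, to 3.52 for Mmp7. A match describes these letters only, and binding was not measured.

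In the plasminogen and coagulation list 6 of 18 genes rose and 1 fell. Serpine2, a protease inhibitor made by fibroblasts, rose by 1.40 and the clotting factor gene F7 by 1.30. The lower gene was Thbd, thrombomodulin, the endothelial receptor that turns thrombin into an anticoagulant, at -1.06.

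Genes of TGF-beta and BMP signalling moved in both directions. Of 39 genes 17 rose and 14 fell (median 0.13). Among the raised genes were extracellular antagonists. Grem1, which binds and blocks BMPs, lay at 9.59, 9.77, 9.37, 9.62 and 8.96 in the bleomycin lungs, against 5.93, 6.44 and 6.02 in the PBS lungs, a 10.1-fold rise (log2 difference 3.33, SE 0.30, limma adjusted p = 5.09e-08). Inhba, which encodes the activin A chain, lay at 10.14, 10.28, 9.84, 10.19 and 9.62 in the bleomycin lungs, against 7.63, 7.75 and 7.94 in the PBS lungs and rose 4.73-fold (log2 difference 2.24, SE 0.28, limma adjusted p = 2.09e-06). Fst, follistatin, which neutralises activin, rose by 2.51. The ligands Tgfb3, Tgfb2 and Tgfb1 rose by 0.81, 0.50 and 0.47, but without PBS replicate 3 Tgfb1 differed by 0.32 (limma adjusted p = 0.128) and Tgfb2 by 0.37 (limma adjusted p = 0.0863).

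Several genes of BMP signalling fell. Bmp6, a ligand made by lung endothelium among other cells, lay at 10.12, 9.77, 9.99, 10.02 and 10.51 in the bleomycin lungs, against 11.72, 11.69 and 11.43 in the PBS lungs, a 2.89-fold fall (log2 difference -1.53, SE 0.18, limma adjusted p = 9.61e-07). Acvrl1, the endothelial receptor ALK1, lay at 12.97, 12.59, 12.70, 12.79 and 12.18 in the bleomycin lungs, against 14, 13.40 and 13.75 in the PBS lungs (log2 difference -1.07, SE 0.18, limma adjusted p = 6.77e-05). Bmpr2, the type II receptor mutated in inherited pulmonary hypertension, lay at 11.37, 11.21, 11.61, 11.30 and 11.63 in the bleomycin lungs, against 12.38, 12.57 and 12.04 in the PBS lungs (log2 difference -0.91, SE 0.17, limma adjusted p = 0.000229). Smad9, a BMP transducer, and Smad6, a BMP-induced inhibitor, differed by -1.20 and -1.14, and Tgfbr3, the coreceptor betaglycan, by -1.0, all called lower. The lists of capillary endothelium fell in the same lungs, as given below, and their part in these differences was not tested. In whole lung, fewer cells of a type and less RNA per cell cannot be told apart.

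Activated and alveolar fibroblast markers moved in opposite directions. Of 20 activated fibroblast genes 11 rose and 2 fell (median 0.49). Cthrc1, which marks the collagen-rich fibroblasts of fibrotic lung, rose by 1.23, and Lrrc15, a marker of TGF-beta-driven fibroblasts, lay at 7.11, 7.45, 7.07, 7.29 and 7.11 in the bleomycin lungs, against 5.84, 5.88 and 5.77 in the PBS lungs, with a PBS mean under 6.11. Fap, the fibroblast activation protein, rose by 0.61. The transcription factor gene Twist2 was lower at -0.42. Of 16 contractile genes 4 rose and 2 fell, a called share near that of all genes. Acta2, smooth muscle actin, lay at 14.07, 14.26, 13.79, 14.22 and 13.88 in the bleomycin lungs, against 13.34, 13.11 and 13.01 in the PBS lungs and rose 1.85-fold (log2 difference 0.89, SE 0.13, limma adjusted p = 2.07e-05), with Actg2 higher by 1.01 and Tagln by 0.57, while Myh11 and Cnn1 differed by 0.23 and 0.22 and were not called.

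Alveolar fibroblast markers went down, 11 of 17 lower and 2 higher, with a median of -0.75. Slc7a10, an amino acid transporter, lay at 8.83, 7.78, 8.86, 8.49 and 9.39 in the bleomycin lungs, against 11.14, 10.99 and 11 in the PBS lungs, a 5.18-fold fall (log2 difference -2.37, SE 0.32, limma adjusted p = 5.06e-06). Inmt, an indole methyltransferase abundant in lung, lay at 15.33, 14.75, 15.25, 15.07 and 15.87 in the bleomycin lungs, against 17.09, 17.14 and 16.99 in the PBS lungs, a 3.53-fold fall (log2 difference -1.82, SE 0.25, limma adjusted p = 9.07e-06). In both genes bleomycin replicate 2 was lowest and replicate 5 highest of the 5 bleomycin lungs, and no bleomycin lung reached a PBS lung. The integrin Itga8, the receptor Fgfr4 and the transcription factor Tcf21, which specifies lung mesenchyme, differed by -1.27, -1.49 and -1.12. Adventitial fibroblast markers were mixed, 3 of 15 higher and 4 lower, with 2 lower without PBS replicate 2, PBS replicate 3, bleomycin replicate 2 or bleomycin replicate 3. The largest change on that list was Sfrp1, a secreted Wnt antagonist, higher by 2.14. Pericyte markers were 2 of 11 higher, a share near the 14.5% of all genes, and none of them without PBS replicate 1 or bleomycin replicate 2, 4 or 5. Of the 11, 4 were lower, 2 without PBS replicate 1, with Gucy1a1, a subunit of the nitric oxide receptor, at -0.94 and Trpc6 at -0.85.

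**Figure D4:**
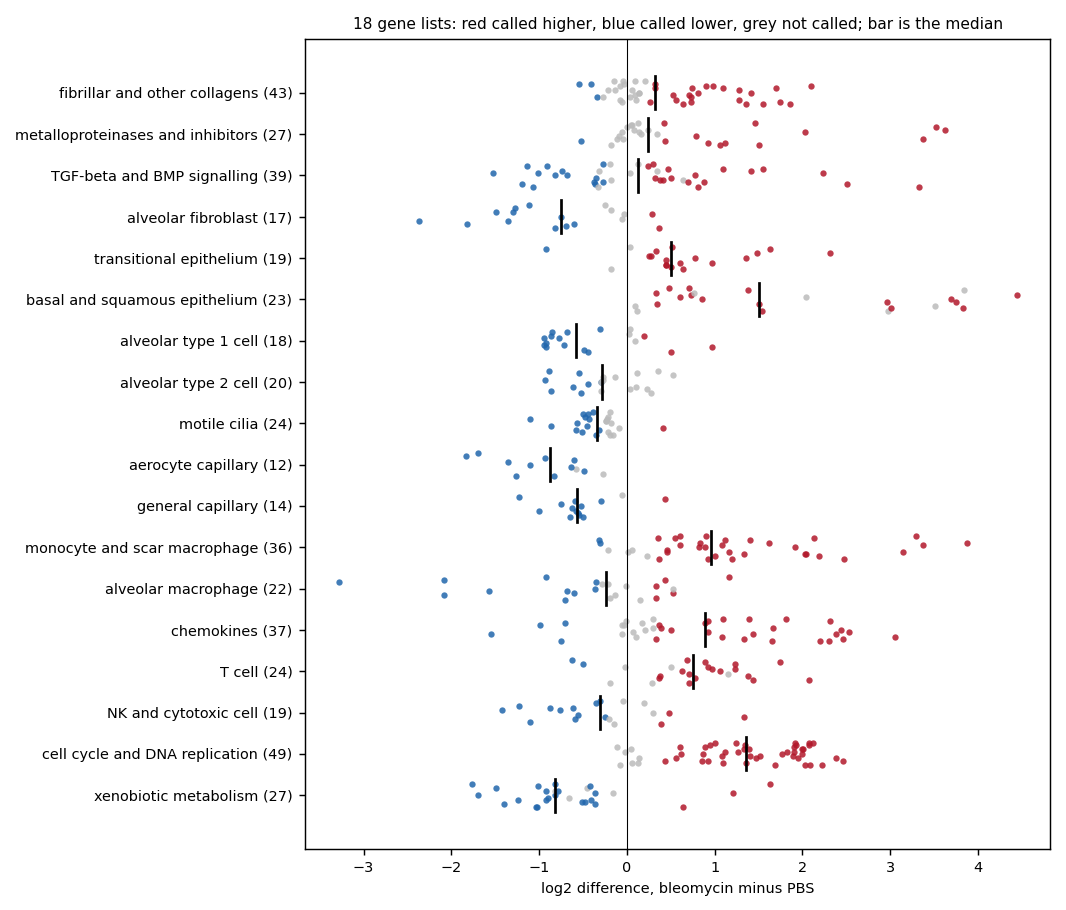
Log2 difference, bleomycin minus PBS, of every measured member of 18 gene lists (number of members in brackets); red points are called higher, blue called lower and grey not called by limma at an adjusted p under 0.05, and black bars give each list's median. Medians run from -0.88 for aerocyte capillary markers and -0.82 for xenobiotic metabolism to 1.36 for cell cycle genes and 1.51 for basal and squamous epithelium.

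Epithelial markers also split. Transitional epithelial genes, which mark cells caught between type 2 and type 1 identity, rose in 16 of 19 cases and fell in 1 (median 0.50). Cldn4, a tight junction protein, lay at 9.42, 9.48, 9.14, 9.47 and 9.13 in the bleomycin lungs, against 7, 6.98 and 7.03 in the PBS lungs, a 5.01-fold rise (log2 difference 2.33, SE 0.19, limma adjusted p = 1.11e-08). Sfn, the p53-induced 14-3-3 sigma, lay at 9.77, 9.81, 9.46, 9.92 and 9.59 in the bleomycin lungs, against 7.98, 8.38 and 7.87 in the PBS lungs. The keratins Krt8, Krt18 and Krt7 rose by 0.64, 0.50 and 0.46, Krt7 by 0.25 and not called without PBS replicate 3 (limma adjusted p = 0.075). The lower gene was Hopx, which also marks type 1 cells.

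Basal and squamous epithelial genes rose in 16 of 23 cases and none fell, with a median of 1.51. The count was 11 without PBS replicate 3 and 12 without PBS replicate 1 or bleomycin replicate 1, 2 or 5, with medians between 1.33 and 1.53. Krt5, the keratin of airway basal cells, lay at 13.34, 13.44, 12.93, 13.35 and 12.82 in the bleomycin lungs, against 9.53, 10.01 and 6.66 in the PBS lungs, a 21.8-fold rise (log2 difference 4.44, SE 0.90, limma adjusted p = 0.000486). Without PBS replicate 3 the difference was 3.41 and without PBS replicate 2 it was 5.08, and it was called in both. The other of its 2 array features differed by 1.65, and as the mean of both Krt5 rose by 3.05. Krt15 lay at 12.34, 12.59, 12.10, 12.31 and 11.92 in the bleomycin lungs, against 8.70, 9.83 and 6.72 in the PBS lungs, with 2.99 without PBS replicate 3 and 4.54 without PBS replicate 2. Krt17 was more even at 9.69, 9.97, 9.70, 9.68 and 9.29 in the bleomycin lungs, against 5.89, 6.08 and 5.78 in the PBS lungs, and since its PBS mean was under 6.11, the difference of 3.75 (limma adjusted p = 1.29e-13) is a lower bound. Krt14 lay at 11.27, 11.41, 10.64, 11.11 and 7.35 in the bleomycin lungs, against 7.31, 6.42 and 6.26 in the PBS lungs, so bleomycin replicate 5 stood just above PBS replicate 1, and without bleomycin replicate 5 the difference was 4.44 rather than 3.69. Krt13 and Krt4, keratins of differentiated squamous layers, differed by 3.84 and 2.97 and were not called (limma adjusted p = 0.0586 and 0.0718), PBS replicate 3 being under 6.11 in both. Without PBS replicate 3 Krt13 differed by 2.21 and Krt4 by 1.77, neither of them called, and without PBS replicate 2 Krt13 differed by 4.94 and Krt4 by 4.07, both called (limma adjusted p = 0.0347 and 0.0284).

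Type 1 cell markers fell in 12 of 18 cases and rose in 3 (median -0.58), the share that rose being near the 14.5% of all genes. Cav1, caveolin of the flattened membrane, lay at 9.82, 9.58, 9.83, 9.78 and 10.03 in the bleomycin lungs, against 10.71, 10.96 and 10.58 in the PBS lungs (log2 difference -0.94, SE 0.14, limma adjusted p = 1.45e-05). Hopx lay at 14.64, 14.46, 14.63, 14.63 and 15.04 in the bleomycin lungs, against 15.78, 15.62 and 15.39 in the PBS lungs. The surface receptor Ager differed by -0.44 and was called, but not without PBS replicate 1, PBS replicate 2 or bleomycin replicate 2 (-0.38, -0.32 and -0.36). Against the list, the proteoglycan gene Spock2 rose to 13.44, 13.33, 13.42, 13.43 and 13.51 in the bleomycin lungs, against 12.71, 12.48 and 12.18 in the PBS lungs (log2 difference 0.97, SE 0.13, limma adjusted p = 4.73e-06). Type 2 cell markers moved less, with 8 of 20 lower, none higher and a median of -0.28. Sftpa1, a surfactant protein of innate defence, lay at 15.75, 15.48, 15.78, 15.61 and 16.29 in the bleomycin lungs, against 16.70, 16.73 and 16.58 in the PBS lungs (log2 difference -0.89, SE 0.16, limma adjusted p = 0.000182). Etv5, a transcription factor that maintains type 2 identity, lay at 13.65, 13.46, 13.75, 13.65 and 14.23 in the bleomycin lungs, against 14.76, 14.45 and 14.84 in the PBS lungs (log2 difference -0.93, SE 0.16, limma adjusted p = 9.96e-05). Sftpd and Sftpb, other surfactant protein genes, differed by 0.10 and -0.27 and were not called.

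Airway secretory genes were led by mucous cell products. Of 19 club and goblet genes 7 rose and 4 fell, the lower count being 1 without PBS replicate 2 or 3 and 2 without PBS replicate 1 or bleomycin replicate 4. Clca1, secreted with mucus by goblet cells, showed the largest rise of all called genes above the median level by the brightest feature of each gene, at 13.38, 13.54, 13.08, 13.26 and 12.78 in the bleomycin lungs, against 9.50, 7.20 and 8.48 in the PBS lungs. It rose 28.1-fold (log2 difference 4.81, SE 0.67, limma adjusted p = 8.91e-06), and by 4.21 without PBS replicate 2, which was lowest. Its 2 array features disagreed in size: the other one differed by 2.19, and as the mean of both Clca1 rose by 3.5, less than the 4.27 of Saa3, an acute phase gene described below. Reg3g, an antibacterial lectin, lay at 14.27, 14.45, 13.99, 14.51 and 14.28 in the bleomycin lungs, against 11.98, 12.68 and 12.18 in the PBS lungs (log2 difference 2.02, SE 0.24, limma adjusted p = 1.27e-06). Itln1, Fcgbp, Muc5ac and Agr2, all goblet cell genes, rose by 1.86, 1.66, 1.5 and 1.43, with Itln1 at 1.05 as the mean of its array features. The secretoglobin Scgb3a2 differed by -0.81, called with all 8 lungs but not without PBS replicate 2 or 3 or bleomycin replicate 1 or 4 (-0.60 to -0.78), and the club cell enzyme Cyp2f2 by -0.36. Of 24 motile cilia genes 13 fell and 1 rose, with a median of -0.34. Tppp3, a tubulin-binding protein of ciliated cells, lay at 12.68, 12.15, 12.47, 12.59 and 12.92 in the bleomycin lungs, against 13.77, 13.81 and 13.40 in the PBS lungs (log2 difference -1.10, SE 0.17, limma adjusted p = 4.09e-05), while the master regulator Foxj1 differed by -0.16 and was not called.

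Markers of both kinds of lung capillary cell fell. Of 12 aerocyte markers, the large capillary cells that line the gas exchange surface, 10 fell and none rose (median -0.88). Fibin lay at 11.24, 10.97, 11.39, 10.99 and 11.66 in the bleomycin lungs, against 13.08, 12.78 and 13.37 in the PBS lungs, a 3.55-fold fall (log2 difference -1.83, SE 0.27, limma adjusted p = 1.45e-05). Ednrb, the endothelin B receptor, lay at 9.10, 8.91, 9.20, 8.97 and 9.67 in the bleomycin lungs, against 10.60, 10.74 and 10.24 in the PBS lungs (log2 difference -1.35, SE 0.19, limma adjusted p = 9.97e-06). Apln, the apelin ligand of aerocytes, lay at 9.73, 9.58, 9.86, 9.80 and 10.17 in the bleomycin lungs, against 11.05, 11.04 and 11.19 in the PBS lungs (log2 difference -1.26, SE 0.16, limma adjusted p = 2.75e-06). In each of these bleomycin replicate 5 was the least changed, yet below all PBS lungs. Of 14 general capillary markers 12 fell and 1, Lpl, rose (median -0.57), though Lpl was not called without PBS replicate 1 or 3. Tek, the angiopoietin receptor, lay at 10.11, 9.94, 9.98, 10.08 and 10.26 in the bleomycin lungs, against 11.14, 11.24 and 10.85 in the PBS lungs, and the apelin receptor Aplnr differed by -0.65.

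Genes of larger vessels moved both ways. Of 18 arterial and venous genes 5 rose and 6 fell (median 0.01), and 3 rose without PBS replicate 2, PBS replicate 3 or bleomycin replicate 2. The arterial genes Hey1, a Notch target, and Dll4, a Notch ligand, fell, Hey1 to 11.68, 11.63, 11.85, 11.62 and 12.15 in the bleomycin lungs, against 12.74, 12.77 and 13.23 in the PBS lungs (log2 difference -1.12, SE 0.17, limma adjusted p = 2.4e-05), and Dll4 by 0.83, while the arterial connexins Gja5 and Gja4 differed by 0.15 and 0.33 and were not called. Ackr1, a chemokine-binding receptor of venules, rose: it lay at 9.15, 9.56, 8.95, 9.38 and 8.86 in the bleomycin lungs, against 6.80, 7.21 and 6.47 in the PBS lungs, a 5.12-fold rise (log2 difference 2.36, SE 0.23, limma adjusted p = 1.52e-07). Selp, P-selectin, which slows leukocytes on inflamed venules, rose by 0.91, but Nr2f2, the regulator of venous identity, fell by 0.50. In the lymphatic list 4 of 7 genes rose and 1 fell, with the lymphatic regulator Prox1 at 0.58 from a PBS mean under 6.11, and Thy1, also made by fibroblasts and T cells, at 1.16.

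Macrophage genes moved both ways. Of 36 monocyte and scar macrophage genes 30 rose and 2 fell (median 0.96), and 30 rose with any single array left out, with 1 or 2 lower. Trem2, a lipid-sensing receptor, lay at 13, 13.17, 13.09, 13.13 and 13.13 in the bleomycin lungs, against 9.94, 9.95 and 9.98 in the PBS lungs. It rose 8.86-fold (log2 difference 3.15, SE 0.13, limma adjusted p = 7.92e-13) with almost no spread within either group. Gpnmb, a glycoprotein of lipid-laden macrophages, lay at 11.40, 11.28, 11.42, 11.37 and 10.96 in the bleomycin lungs, against 8.69, 8.81 and 8.94 in the PBS lungs and rose 5.55-fold. Ccr2, the receptor that draws monocytes from blood, rose by 1.00, and Ms4a7 by 2.19. The complement genes C1qa, C1qb and C1qc, made largely by macrophages, rose by 2.04, 2.13 and 1.92, among 12 of 28 complement genes that rose and 3 that fell.

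Alveolar macrophage genes were lower in 10 of 22 cases and higher in 5 (median -0.24), with 2 higher without PBS replicate 3. Car4 is also on the aerocyte list and Lpl on the general capillary list, and the part of capillary cells was not tested. Fabp1, a fatty acid-binding protein that lung macrophages carry, lay at 7.87, 7.11, 7.63, 7.45 and 8.64 in the bleomycin lungs, against 11.11, 10.97 and 10.98 in the PBS lungs, a 9.71-fold fall (log2 difference -3.28, SE 0.34, limma adjusted p = 2.12e-07). Krt79 lay at 9.96, 9.64, 9.81, 9.82 and 10.72 in the bleomycin lungs, against 11.96, 12.11 and 12.13 in the PBS lungs, a 4.22-fold fall (log2 difference -2.08, SE 0.31, limma adjusted p = 2.1e-05). Siglecf, a sialic acid receptor of alveolar macrophages and eosinophils, differed by -0.68. Fabp4, Cidec and Cd36 differed by -1.57, -2.08 and -0.92; Fabp4 and Cidec are also in the list of fat tissue, whose fall is given above, and its part in them was not tested. The scavenger receptor Marco, also on the list, differed by 0.52 and was not called, and Itgax, the integrin CD11c, rose by 1.17.

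Of 11 arginase, resistin-like and chitinase-like genes, several of them known from type 2 immunity, 6 rose and 2 fell. Retnla, a resistin-like protein of alternatively activated macrophages and epithelium, lay at 16.71, 16.89, 16.70, 16.77 and 16.55 in the bleomycin lungs, against 13.34, 13.41 and 13.78 in the PBS lungs, a 9.29-fold rise (log2 difference 3.21, SE 0.27, limma adjusted p = 1.47e-08). Arg1, arginase 1, lay at 10.48, 10.83, 10.17, 10.55 and 10.05 in the bleomycin lungs, against 6.94, 7.59 and 6.85 in the PBS lungs and rose 9.76-fold (log2 difference 3.29, SE 0.32, limma adjusted p = 1.22e-07). Chil4 rose by 2.77, while its close relative Chil3 differed by -0.14 and was not called, and the array features of such close relatives may not separate them fully. The lower genes were Retn, resistin of fat cells, at -2.28 and the acidic chitinase Chia1 at -1.14.

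Of 37 chemokine genes 23 rose and 4 fell, with a median of 0.89. Ccl2, the main attractant of monocytes, lay at 11.22, 11.49, 11.10, 11.46 and 10.49 in the bleomycin lungs, against 8.13, 8.05 and 8.09 in the PBS lungs, an 8.35-fold rise (log2 difference 3.06, SE 0.32, limma adjusted p = 3.07e-07). The related monocyte attractants Ccl7, Ccl12 and Ccl8 rose by 2.31, 2.38 and 2.44, Ccl9 by 2.46 and the neutrophil attractant Cxcl5 by 2.53. The platelet chemokines Ppbp and Pf4 fell by 1.55 and 0.99, and Cx3cl1, bound to endothelium, by 0.71. Among 22 chemokine receptors 12 rose and 3 fell. Ackr4, which scavenges the lymph node chemokines, lay at 7.91, 7.45, 7.73, 7.61 and 8.39 in the bleomycin lungs, against 9.76, 9.73 and 10.00 in the PBS lungs, a 4.03-fold fall (log2 difference -2.01, SE 0.20, limma adjusted p = 1.52e-07), opposite to Ackr1.

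Interleukins and their receptors rose in 24 of 70 cases and fell in 6 (median 0.18), and 20 of the 70 were dim in both groups. Il6 lay at 8.86, 9.33, 8.82, 8.96 and 8.63 in the bleomycin lungs, against 6.47, 6.41 and 6.59 in the PBS lungs, a 5.39-fold rise (log2 difference 2.43, SE 0.27, limma adjusted p = 5.84e-07). Il11, a fibroblast cytokine induced by TGF-beta, rose by 1.24, and the decoy receptor Il1r2 and the receptor chain Il2ra both by 1.74. Of 25 acute phase genes 15 rose and 1 fell (median 0.92). Saa3, the serum amyloid A made outside the liver, lay at 13.02, 13.20, 12.81, 13.16 and 12.51 in the bleomycin lungs, against 8.12, 9.05 and 8.84 in the PBS lungs, a 19.3-fold rise (log2 difference 4.27, SE 0.40, limma adjusted p = 6.06e-08). The metallothionein Mt2 lay at 15.86, 16.12, 15.70, 15.96 and 15.50 in the bleomycin lungs, against 13.32, 13.50 and 13.43 in the PBS lungs (log2 difference 2.41, SE 0.19, limma adjusted p = 9.22e-09), Serpina3n rose by 2.06, and Socs3, an inhibitor of IL-6 signalling, by 2.06.

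Of 24 T cell genes 17 rose and 2 fell, with a median of 0.75. In bleomycin replicate 3, the array with the thymus signal, the list shift was 1.10, against 0.46 to 0.82 in the other 4 bleomycin lungs. Without replicate 3, 17 rose and 2 fell, with a median of 0.64. Pdcd1, the checkpoint receptor PD-1, lay at 8.50, 8.66, 8.52, 8.69 and 8.17 in the bleomycin lungs, against 6.52, 6.63 and 6.14 in the PBS lungs, a 4.23-fold rise (log2 difference 2.08, SE 0.17, limma adjusted p = 1.33e-08), and replicate 3 was not its highest array. Foxp3, of regulatory T cells, lay at 7.70, 7.83, 7.65, 7.61 and 7.42 in the bleomycin lungs, against 6.12, 6.10 and 6.57 in the PBS lungs (log2 difference 1.38, SE 0.15, limma adjusted p = 5.55e-07). Cd3e, part of the T cell receptor complex, lay at 10.95, 11.05, 11.28, 10.92 and 10.69 in the bleomycin lungs, against 9.93, 10.15 and 10.52 in the PBS lungs (log2 difference 0.78, SE 0.11, limma adjusted p = 1.32e-05). Cd8a was highest in replicate 3 at 9.35 and differed by 1.15, not called (limma adjusted p = 0.216). Tbx21 and Gata3, the regulators of type 1 and type 2 helper cells, were lower at -0.50 and -0.62.

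Natural killer and cytotoxic genes went the other way, 11 of 19 lower and 3 higher (median -0.31), the higher share being near the 14.5% of all genes. Gzma, granzyme A, lay at 11.84, 11.41, 12.14, 11.49 and 12.31 in the bleomycin lungs, against 13.33, 12.99 and 13.46 in the PBS lungs, a 2.68-fold fall (log2 difference -1.42, SE 0.22, limma adjusted p = 3.57e-05). The killer cell receptors Klra8, Klra4 and Klre1 differed by -1.23, -1.10 and -0.88, and Ncr1 by -0.76, all called lower, whereas Klrg1, shared with effector and regulatory T cells, rose by 1.34. Among 21 B and plasma cell genes 12 rose and 1 fell (median 0.49). Cr2, the complement receptor of B cells and follicular dendritic cells, lay at 11.49, 11.79, 11.29, 11.42 and 11.14 in the bleomycin lungs, against 10.04, 10.45 and 10.24 in the PBS lungs, a 2.28-fold rise (log2 difference 1.19, SE 0.19, limma adjusted p = 3.42e-05). Cxcl13, which builds B cell follicles, differed by 1.39 and was called, but without PBS replicate 1, its lowest array, it differed by 0.77 (limma adjusted p = 0.225).

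Of 17 dendritic cell genes 10 rose and 2 fell (median 0.61). Batf3, needed for cross-presenting dendritic cells, lay at 10.72, 10.68, 10.31, 10.60 and 8.87 in the bleomycin lungs, against 8.67, 7.97 and 8.36 in the PBS lungs (log2 difference 1.90, SE 0.40, limma adjusted p = 0.000653), with bleomycin replicate 5 close to PBS replicate 1. Fscn1 and Ccl17, of mature dendritic cells, rose by 2.08 and 1.81. Antigen presentation genes rose in 13 of 19 cases and none fell (median 0.61). Ctss, the protease that frees class II molecules for loading, lay at 15.92, 15.97, 16.10, 15.91 and 16.01 in the bleomycin lungs, against 14.48, 14.60 and 14.76 in the PBS lungs, a 2.58-fold rise (log2 difference 1.37, SE 0.11, limma adjusted p = 1.24e-08), and the class II genes H2-Aa, Cd74 and H2-DMa rose by 0.78, 0.76 and 0.75. The class I subunit B2m differed by -0.01 and was not called.

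Neutrophil genes showed no common direction, with 4 of 19 higher and 6 lower. Camp and Ngp, granule proteins made in immature neutrophils, were lower: Camp lay at 9.95, 9.68, 10.01, 9.63 and 10.72 in the bleomycin lungs, against 11.73, 11.47 and 12.34 in the PBS lungs, a 3.6-fold fall (log2 difference -1.85, SE 0.32, limma adjusted p = 9.69e-05), and Ngp differed by -1.44. Ltf, lactoferrin, also made by airway glands, rose to 13.02, 13.15, 12.71, 13.12 and 12.87 in the bleomycin lungs, against 10.86, 11.75 and 10.87 in the PBS lungs (log2 difference 1.81, SE 0.22, limma adjusted p = 2.08e-06). S100a8, abundant in mature neutrophils, differed by -0.72 and was called, but not without PBS replicate 3 (-0.55, limma adjusted p = 0.101), and S100a9 differed by -0.32 and was not called. Mast cell, basophil and eosinophil genes were lower in 9 of 17 cases and none was higher (median -0.54), with Prg2, an eosinophil granule protein, at -0.65, Gata2 at -0.69, not called without PBS replicate 2, and Mcpt8 dim after bleomycin and not called. Kit is also on the general capillary list and Siglecf on the alveolar macrophage list, and the part of those cells was not tested.

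Of 36 interferon response genes 16 rose and 4 fell (median 0.11), with 2 lower without PBS replicate 1. Cxcl10 lay at 10.76, 11.16, 11.04, 10.85 and 10.63 in the bleomycin lungs, against 8.27, 8.74 and 8.74 in the PBS lungs, a 4.93-fold rise (log2 difference 2.30, SE 0.32, limma adjusted p = 9.66e-06) or 1.34 on the log2 scale as the mean of its array features, and Cxcl9 rose by 2.20. Isg15, a ubiquitin-like protein, lay at 13.26, 13.38, 13.39, 13.44 and 13.38 in the bleomycin lungs, against 12.66, 12.48 and 12.41 in the PBS lungs and rose 1.81-fold (log2 difference 0.86, SE 0.12, limma adjusted p = 8.29e-06). Mx1, Oasl1 and Irf7 rose by 1.31, 1.29 and 1.06, while Ifit2 and Ifit3 differed by -0.02 and 0.35 and were not called. The interferon-stimulated response element, here a pair of GAAA runs with any 2 bases between them on either strand, was in the promoters of 18 of 27 list genes with a sequence (66.7%), against 3.91% of all genes. It was in 7 of the 11 called higher (63.6%). The stretch before the start of Isg15 is shown as an example of that element, in capitals, from RefSeq on GRCm38.p6 at chr4:156200819-156200918, minus strand.
Isg15: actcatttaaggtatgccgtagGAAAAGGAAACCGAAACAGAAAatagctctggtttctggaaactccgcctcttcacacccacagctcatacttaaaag

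Cell cycle genes rose together. Of 49 genes 42 rose and none fell, 33 of them by more than 2-fold, with a median of 1.36, and between 40 and 42 rose with any single array left out. Ccna2, cyclin A2, lay at 10.80, 11.21, 10.91, 11.11 and 10.51 in the bleomycin lungs, against 8.55, 8.56 and 8.25 in the PBS lungs, a 5.49-fold rise (log2 difference 2.46, SE 0.24, limma adjusted p = 1.22e-07). Mki67, the proliferation marker Ki-67, lay at 11.97, 12.02, 12.14, 12.02 and 11.74 in the bleomycin lungs, against 9.84, 9.88 and 9.94 in the PBS lungs (log2 difference 2.09, SE 0.20, limma adjusted p = 8.76e-08). Birc5, survivin, lay at 12.52, 12.60, 12.50, 12.47 and 11.60 in the bleomycin lungs, against 10.07, 9.65 and 10.14 in the PBS lungs, with replicate 5 the lowest bleomycin lung but above all PBS lungs. Top2a, Aurka, Ccnb2 and Cdk1, which act at chromosome separation and mitotic entry, rose by 2.22, 2.03, 1.93 and 1.82, the last by 0.69 as the mean of its array features. The list shift was lowest in replicate 5 at 1.07, against 1.29 to 1.40 in the other 4.

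The promoters of these genes are known for pairs of CCAAT boxes, bound by NF-Y, and for the CHR element, bound by the DREAM and MuvB complexes. CCAAT, searched on both strands, was in 30 of the 39 list genes with a promoter sequence (76.9%), against 42.1% of all genes. The CHR letters TTTGAA were in 17 of the 39 (43.6%), against 17.6% of all genes and 17.7% of all genes called higher, and the AP-1 motif was in none. Matches of different motifs were counted separately and may overlap. The stretches before the starts of Cdk1, Ccnb2 and Top2a show these matches in capitals, on either strand, for 3 of the genes that rose: CCAAT boxes in each, and the CHR letters in Cdk1 and Top2a. They come from RefSeq on GRCm38.p6, minus strand, at chr10:69352913-69353012, chr9:70421555-70421654 and chr11:99024190-99024389.
Cdk1: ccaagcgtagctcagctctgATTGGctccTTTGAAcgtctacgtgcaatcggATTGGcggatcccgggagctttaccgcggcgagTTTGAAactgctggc
Ccnb2: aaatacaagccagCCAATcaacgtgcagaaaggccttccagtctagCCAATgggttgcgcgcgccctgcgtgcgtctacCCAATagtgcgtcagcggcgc
Top2a: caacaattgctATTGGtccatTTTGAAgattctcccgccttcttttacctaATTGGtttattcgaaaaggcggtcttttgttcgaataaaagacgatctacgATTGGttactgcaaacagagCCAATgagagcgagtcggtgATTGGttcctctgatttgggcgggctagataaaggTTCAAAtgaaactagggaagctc

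Targets of p53, which halts the cycle after DNA damage, also rose. Of 28 p53 targets 15 rose and 2 fell (median 0.59), with 4 lower without PBS replicate 1. Cdkn1a, the cell cycle inhibitor p21, lay at 12.56, 12.55, 12.43, 12.83 and 12.36 in the bleomycin lungs, against 10.47, 10.67 and 10.27 in the PBS lungs, a 4.22-fold rise (log2 difference 2.08, SE 0.16, limma adjusted p = 9.17e-09). Gdf15, a stress hormone, lay at 9.82, 9.97, 10.02, 10.17 and 9.97 in the bleomycin lungs, against 7.93, 8.41 and 8.51 in the PBS lungs (log2 difference 1.71, SE 0.16, limma adjusted p = 6.48e-08). Mdm2, the negative regulator that p53 induces, lay at 12.99, 13.08, 13.15, 12.97 and 12.99 in the bleomycin lungs, against 12.88, 12.94 and 13.25 in the PBS lungs and was not called (limma adjusted p = 0.927). Psrc1 and Ckap2, spindle genes on the list, rose by 2.27 and 1.69. Of 13 senescence genes 7 rose and 3 fell, Cdkn2a, the p16 and ARF locus, by 1.57 (0.96 as the mean of its array features), whereas Cdkn2b differed by 0.11 and was not called. Double-strand break repair genes and Blmh rose in 10 of 25 cases and fell in 1 (median 0.24). Blmh, the hydrolase that inactivates bleomycin, lay at 10.93, 10.79, 10.77, 10.86 and 10.86 in the bleomycin lungs, against 10.52, 10.42 and 10.25 in the PBS lungs, a 1.36-fold rise (log2 difference 0.44, SE 0.10, limma adjusted p = 0.00194), and the exonuclease gene Exo1 rose by 1.31.

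Genes of xenobiotic metabolism fell in most cases. Of 27 genes 20 fell and 3 rose (median -0.82). Fmo1, a flavin monooxygenase, lay at 11.14, 10.93, 11.10, 11.10 and 11.53 in the bleomycin lungs, against 12.65, 12.73 and 12.56 in the PBS lungs, a 2.8-fold fall (log2 difference -1.49, SE 0.13, limma adjusted p = 2.43e-08). Cyp2e1, an alcohol-metabolising cytochrome, lay at 11.57, 11.27, 10.94, 11.72 and 11.42 in the bleomycin lungs, against 12.40, 13.92 and 13.10 in the PBS lungs (log2 difference -1.76, SE 0.40, limma adjusted p = 0.00138), with a wider range in the PBS lungs than in the bleomycin lungs. PBS replicate 2 was highest in Cyp2e1 and also in the fat tissue list, at a shift of 0.50. Cyp4b1, Ces1f and Cyp2b10 differed by -1.70, -1.40 and -1.24. Aldh1a3, a retinaldehyde dehydrogenase, rose by 1.63.

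Antioxidant genes had no common direction, 6 of 27 higher and 7 lower (median 0.02). Hmox1, haem oxygenase, lay at 12.84, 12.89, 12.59, 12.88 and 12.40 in the bleomycin lungs, against 11.37, 11.43 and 11.31 in the PBS lungs, a 2.54-fold rise (log2 difference 1.35, SE 0.17, limma adjusted p = 3.33e-06), while the glutathione transferase Gstm1 lay at 13.85, 13.60, 13.93, 13.69 and 14.22 in the bleomycin lungs, against 15.01, 15.06 and 15.22 in the PBS lungs, a 2.36-fold fall (log2 difference -1.24, SE 0.20, limma adjusted p = 5.44e-05), and Nqo1, a standard Nrf2 target, differed by -0.22 and was not called. In lipid synthesis 9 of 22 genes fell and 1 rose (median -0.19). Acaca, which makes malonyl-CoA, lay at 12.28, 12.23, 12.25, 12.39 and 12.66 in the bleomycin lungs, against 13.22, 13.39 and 13.32 in the PBS lungs (log2 difference -0.95, SE 0.16, limma adjusted p = 6.33e-05), and Fasn, fatty acid synthase, at 9.85, 9.56, 9.65, 10.03 and 10.18 in the bleomycin lungs, against 10.58, 11.03 and 10.67 in the PBS lungs (log2 difference -0.91, SE 0.16, limma adjusted p = 9.51e-05). The other array features of Acaca differed by between -1.07 and -0.35. Acaca and Fasn were both highest in PBS replicate 2, as was the fat tissue list. Of that list 9 of 11 genes fell (median -1.52), and its part in the falls of Acaca and Fasn was not tested. The sterol genes Hmgcs1, Sqle and Fdft1 differed by 0.03, 0.03 and 0.26, none called.

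Of 24 glycolysis and hypoxia genes 14 rose and 5 fell (median 0.43). Ankrd37, a hypoxia-induced gene, lay at 11.14, 11.30, 10.98, 11.27 and 9.11 in the bleomycin lungs, against 9.04, 8.05 and 8.89 in the PBS lungs (log2 difference 2.10, SE 0.52, limma adjusted p = 0.00304), with bleomycin replicate 5 just above the highest PBS lung. Egln3 rose by 1.29, whereas Vegfa and Epas1, made by alveolar epithelium and endothelium, differed by -0.68 and -0.59, both called lower. The other array features of Epas1 differed by -0.64 and -0.10. Of 26 unfolded protein response genes 5 rose and 7 fell, somewhat above the shares of all genes (14.5% and 19.3%). The counts were 3 higher and 3 lower without PBS replicate 3, 2 lower without PBS replicate 1 and 4 lower without bleomycin replicate 1 or 4. The chaperone Hspa5 differed by 0.01.

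The list of growth factors of epithelial repair and related genes moved in both directions. Of its 31 genes 9 rose and 12 fell (median -0.23). Ereg, the EGF receptor ligand epiregulin, lay at 8.63, 8.93, 8.59, 8.63 and 8.40 in the bleomycin lungs, against 6.17, 6.34 and 5.99 in the PBS lungs, a 5.54-fold rise (log2 difference 2.47, SE 0.25, limma adjusted p = 1.52e-07), and Igf1 and Nrg1 rose by 1.62 and 1.06. The other array features of Igf1 differed by between 0.25 and 2.03. Fgf10, the fibroblast factor for alveolar and airway progenitors, lay at 7.82, 7.83, 7.80, 7.75 and 7.97 in the bleomycin lungs, against 8.44, 8.28 and 8.35 in the PBS lungs (log2 difference -0.52, SE 0.07, limma adjusted p = 3.46e-06), and Fgf7 and Igfbp6 fell by 0.84 and 1.72. In Wnt signalling 10 of 36 genes rose and 9 fell, with 5 lower without PBS replicate 3. Wnt10a lay at 9.48, 9.75, 9.28, 9.44 and 8.98 in the bleomycin lungs, against 6.25, 6.57 and 6.01 in the PBS lungs, an 8.62-fold rise (log2 difference 3.11, SE 0.26, limma adjusted p = 1.94e-08), while Wnt10b fell by 1.29 and the receptor Fzd4 by 0.81.

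Of 17 circadian clock genes 10 fell and 3 rose (median -0.37), the share that rose being near the 14.5% of all genes. Dbp, an output of the clock, lay at 14.43, 14.03, 14.33, 14.29 and 14.67 in the bleomycin lungs, against 15.55, 15.44 and 15.46 in the PBS lungs, a 2.2-fold fall (log2 difference -1.14, SE 0.13, limma adjusted p = 1.12e-06), and Nr1d1, Nr1d2, Hlf and Tef differed by -1.10, -1.02, -0.98 and -0.90. Arntl, the activator that these repressors and outputs oppose in phase, lay at 8.25, 8.39, 8.42, 8.35 and 8.14 in the bleomycin lungs, against 7.75, 7.75 and 7.66 in the PBS lungs, a 1.5-fold rise (log2 difference 0.59, SE 0.13, limma adjusted p = 0.00151), and Nfil3 rose by 1.15. The hour at which lungs were taken is not given in the sources used here. Glucocorticoid-responsive genes were mixed, 6 of 15 higher and 5 lower (3 without PBS replicate 1), with Fkbp5 at 0.97 and Dusp1 at -0.81.

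Dnm3os, the RNA that the other gapmers of the series target, lay at 6.84, 7.03, 6.64, 7.05 and 6.93 in the bleomycin lungs, against 6.37, 6.27 and 6.39 in the PBS lungs, all of which had the control gapmer. It rose 1.47-fold (log2 difference 0.56, SE 0.12, limma adjusted p = 0.00112), with no overlap. The PBS mean of 6.34 was close to the level under which a mean is treated as dim. Dnm3os has 3 array features. Those not used differed by -0.03 and 0.52, and neither lay above that level. The lowest difference of Dnm3os under the processing alternatives was 0.35, and it was called in all of them. Dnm3, on the other strand, differed by -0.26 and was not called.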

How the data were processed

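The deposited values are log2 intensities of one-colour Agilent arrays that the authors had already brought to a common distribution, since the 24 array medians lay between 6.485 and 6.495. The submitters' processing notes name limma, without a version, and background correction is not given in the sources used here. Of 62976 array features 31465 carried 1 gene symbol, giving 20728 genes, each read from its feature with the highest mean over the 24 arrays, with no filter on level. A group mean under 6.11, the 25th percentile of gene means, was treated as dim. No value needed a column of another series.

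R 4.3.3 and limma 3.58.1 (its moderated two-sided test) fitted 6 group means to the 24 arrays at once, with 18 residual and 3.26 prior degrees of freedom. Calls used a Benjamini-Hochberg adjusted p under 0.05. The median residual SD was 0.14 and the median half-width of a 95% interval 0.211 on the log2 scale. The fit was also run on simulated data with normal noise and no outlying arrays, unlike the arrays here. That run checks the code and lends no support to the calls. No pairing of samples by replicate number was evident across groups. Correlations of deviations were 0.26, -0.177 and 0.191 for like numbers and ran from -0.337 to 0.302 for unlike numbers. So few pairs cannot exclude pairing.

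The members and the 63 gene lists (1225 genes) were chosen with earlier results of these data known. List changes are counts and medians with no test. Named genes are the 10 largest rises and falls above the median level without overlap, any member of lists with up to 14 measured genes, and in longer lists the 6 largest called changes each way and the first 6 as written. Promoters (16404 genes) are RefSeq, GRCm38.p6. Tables and plots used Python 3.11.15, pandas 2.3.3, NumPy 2.4.6 and matplotlib 3.10.9.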

Additional observations from a re-analysis of the deposited data

Results flagged for a closer look

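For each named gene and each list shown by array, the 5 bleomycin arrays were searched for a highest or lowest array whose gap to its neighbour took up more than 0.71 of the group's range, which chance gives in about 1 of 20 groups. Over the 10364 genes above the median level 1028 had such an array (9.92%); bleomycin replicate 5 was it in 528 genes as the lowest and 292 as the highest.

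Bleomycin replicate 3 was highest in the thymus genes Rag1 (gap over range 0.98), Dntt (0.962), Prss16 (0.927) and Ccl25 (0.892), and in the mean shift of the thymus list (0.982), which was 1.63 there.

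Bleomycin replicate 5 was lowest in Birc5 (0.868), Ankrd37 (0.855), S100a9 (0.851), Ckap2 (0.84), Krt14 (0.811), Batf3 (0.782) and Oasl1 (0.759). Apart from S100a9, which was not called, these genes rose after bleomycin, and replicate 5 lay nearest the PBS lungs. It was highest, and so nearest the PBS lungs, in genes that fell: Ogn (0.839), Cidec (0.783), Ncr1 (0.735), Col20a1 (0.723), Wnt10b (0.723) and Ngp (0.716). The motile cilia list likewise shifted least there, by -0.18 (0.769). Bleomycin replicate 1 was highest in Cx3cl1 (0.80), at 11.69.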

How the results depend on the processing

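The 7001 calls were recomputed under 23 alternatives. Under 14 of them, with all 8 arrays kept, between 6161 (RNA integrity number as a covariate) and 7598 (array weights) genes were called. Removal of a position trend over the array, chosen after seeing the data, gave 7500. With 1 array left out the count ran from 5695 (without PBS replicate 3) to 7339 (without bleomycin replicate 5). Calls higher were 42.9% of all calls, 51.3% after cyclic loess and 37.8% after median centring, with medians of all genes of -0.023, 0.001 and -0.053. With the replicate number as a block 7100 genes were called, 6524 of them among the 7001. These counts moved by under 1.5 times in the 23 alternatives, as did the list genes called higher (456, with 402 to 482 in the alternatives) and lower (296, with 266 to 308). Of 232 named genes that were called, 221 passed in all 23 and none changed sign; the other 11 were Ager, Lpl, Scgb3a2, Krt7, S100a8, Gata2, Cxcl13, Tgfb1 and Tgfb2, lost when 1 array was left out, Col8a2 (-0.15 as the mean of all its features) and Twist2 (limma adjusted p = 0.0507 with only the 8 arrays). Of those not called, 16 passed in 1 or more alternatives. With the block Ager was lost (-0.40) and Postn (limma adjusted p = 0.0164) and Fdft1 were called. The causes were not tested. List counts of 0 to 2 moved by at most 2 genes when 1 array was left out. Levels under 6.11 and near 18 limit what can be read, as do only 3 PBS arrays.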
